A study of Homo sapiens with 6 samples.

Results

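Messenger RNA of the nuclear-encoded subunits of the mitochondrial respiratory chain was examined in 2 human gastric cancer lines, HGC-27, from an undifferentiated carcinoma, and AGS, from an adenocarcinoma. The members are the genes whose symbols begin with NDUFA, NDUFB, NDUFC, NDUFS, NDUFV, UQCR, COX4 to COX8 or ATP5, together with SDHA, SDHB, SDHC and SDHD. Assembly factors with NDUFAF names, hyphenated readthrough names and pseudogenes were left out. This gave 89 of 51103 genes: 37 of complex I, 4 of complex II, 9 of complex III, 19 of complex IV and 20 of complex V. NDUFA4 and NDUFA4L2 were placed with complex IV, where the NDUFA4 protein resides, and ATP5S, a coupling factor rather than a fixed subunit, was kept in complex V by its name.

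Complexes I and II pass electrons from NADH and succinate to ubiquinone, complex III passes them on to cytochrome c, and complex IV hands them to oxygen. Complexes I, III and IV pump protons, and complex V, the ATP synthase, makes ATP from the returning protons. All subunits of complex II are encoded in the nucleus, whereas the other complexes combine nuclear subunits with a few encoded by mitochondrial DNA.

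Cells of both lines received a lentivirus to establish overexpression of NINJ1, a cell-surface protein that ruptures the plasma membrane in lytic cell death. The other group is labelled negative control, and what its cells received is not described further in the labels. Each line had 1 control and 2 libraries labelled NINJ1, 6 in all, with 12619684 to 18175697 counts each. The line of the replicate 2 libraries follows the file names, because titles and file names disagree. Genes were picked that reached 100 counts in each of the HGC-27 libraries whose line is not in doubt and had none in their AGS counterparts. Of these 15 genes, the replicate 2 library with HGC-27 in its file name held all 15 at 10 counts or more and the other held 0. Of 13 genes chosen the other way round for AGS, the replicate 2 library with AGS in its file name held 13 and the other 0.

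NINJ1 itself was checked first. Its level per length and depth (FPKM, fragments scaled by gene length and library size) was 1.48 in the HGC-27 control and 6.88 and 7.53 in the HGC-27 libraries labelled NINJ1. In AGS it was 10.9 in the control, 7.81 in replicate 1 and 6.29 in replicate 2 labelled NINJ1. The difference was 1.89 on the log2 scale in HGC-27 (edgeR adjusted p = 3.22e-08) and -0.68 in AGS (edgeR adjusted p = 0.0148), and 0.57 and -0.56 after a correction for GC content. In AGS NINJ1 was thus lower in the libraries labelled for its overexpression. All directions given for AGS are therefore between libraries labelled NINJ1 and the library labelled control. Of 6 epithelial markers, which summed to 203.0 FPKM in the HGC-27 control and 124.0 to 155.0 elsewhere, KRT18 was at 64.6 to 111 and KRT8 at 48.6 to 82.8, whereas CDH1 was at most 0.454 and KRT19 at most 0.0339. CLDN4 went against this sum, at 0.725 FPKM in the HGC-27 control and 8.06 to 10.4 elsewhere. In HGC-27 1 of 5 tested epithelial markers was called higher and 4 lower. Mesenchymal markers (CDH2, FN1, VIM and ZEB1) summed to 109.0 FPKM in the HGC-27 control, 70.8 and 64.0 in the libraries labelled NINJ1, and 93.6 to 116.0 in AGS. All 4 were called lower in HGC-27, as were most members, and 1 was called lower in AGS. After GC correction 2 of the 4 were called lower in HGC-27 and 2 were not called. The part of these marker differences in the members' differences was not tested. Leukocyte markers summed to 0.203 to 1.63 FPKM over 5 genes, with CD3E at 0 throughout, and endothelial markers to 0.0825 to 0.506 over 3 genes. Fibroblast markers summed to 1.07 in the HGC-27 control and 3.27 to 10.9 elsewhere over 5 genes, with COL1A1 at 0.812 and 2.56 to 6.91. DCN went the other way: its 38 counts in the HGC-27 control stood against at most 7 per library elsewhere. LUM had 5 counts in that control and 0 elsewhere. Of 3 tested fibroblast markers, 1 was called higher and 1 lower for HGC-27, whereas AGS had all 3 called lower. PDGFRB fell there from 3.9 FPKM to 0.777 and 0.707. Of the erythroid pair, HBB was at 0 throughout, whereas HBA1 was at 0 in HGC-27 and at 1.63, 2.47 and 2.35 FPKM in the AGS libraries, on 19, 26 and 26 counts.

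The HGC-27 control stood apart from the other 5 libraries. It held 19371 genes with a count against 22839 to 23396 elsewhere, and its genes of high GC content were low, as described with the HGC-27 comparison. Its scaling factor by TMM (a trimmed mean of log ratios) was 0.798 against 1.02 to 1.06 in the others. All differences below are scaled by TMM, and FPKM levels are as deposited. No second HGC-27 control exists among the 6 libraries, so the spread in the tests comes from the pairs labelled NINJ1 and each control is assumed to vary like them. Whether the replicates came from separate cultures is not given, and p-values describe only how much these libraries spread, which may be technical. In bulk RNA, fewer cells of a kind and less RNA per cell cannot be told apart.

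Promoters of respiratory chain genes are known for binding sites of NRF1, of ETS factors such as GABP (NRF2) and of YY1. RefSeq promoter windows (250 bases before to 50 after the start, GRCh38.p14) were matched by symbol for 70 of the 89 members. Both strands were searched for GCGCATGCG (NRF1), CCGGAAGT (ETS) and AAGATGGC (YY1). The NRF1 letters were in windows of 11 members (15.7%) against 3.11% of 15843 protein-coding genes with a window. The ETS letters were in 12 members (17.1%) against 6.97%, and the YY1 letters in 12 members (17.1%) against 4.66%. At least 1 of the 3 was found in 31 members (44.3%) against 13.6% of the protein-coding genes with a window. A match is a description of letters and not a measured binding site. One upstream stretch per complex is shown for genes whose values are given below, and ATP5MC2 is added as a member that went the other way from most in HGC-27. Capitals mark the NRF1 or ETS letters on either strand, and each stretch ends just before the start of the transcript.
NDUFS6 (complex I, NRF1, chr5:1801257-1801406, plus strand): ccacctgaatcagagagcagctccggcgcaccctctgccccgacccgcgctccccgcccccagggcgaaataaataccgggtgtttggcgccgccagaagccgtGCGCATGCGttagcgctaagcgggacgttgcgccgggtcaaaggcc
SDHD (complex II, NRF1 and ETS, chr11:112086723-112086872, plus strand): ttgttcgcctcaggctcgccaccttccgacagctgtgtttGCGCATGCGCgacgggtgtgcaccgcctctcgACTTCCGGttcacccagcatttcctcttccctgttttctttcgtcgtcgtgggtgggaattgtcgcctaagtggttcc
UQCRQ (complex III, ETS, chr5:132866492-132866641, plus strand): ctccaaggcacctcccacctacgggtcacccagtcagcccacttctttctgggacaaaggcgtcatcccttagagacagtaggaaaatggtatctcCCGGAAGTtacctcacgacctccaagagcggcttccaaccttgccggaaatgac
COX8A (complex IV, ETS, chr11:63974470-63974619, plus strand): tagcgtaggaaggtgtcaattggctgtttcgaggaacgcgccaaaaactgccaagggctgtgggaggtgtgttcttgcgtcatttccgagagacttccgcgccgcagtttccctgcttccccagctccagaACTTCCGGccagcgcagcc
ATP5F1C (complex V, NRF1, chr10:7788027-7788176, plus strand): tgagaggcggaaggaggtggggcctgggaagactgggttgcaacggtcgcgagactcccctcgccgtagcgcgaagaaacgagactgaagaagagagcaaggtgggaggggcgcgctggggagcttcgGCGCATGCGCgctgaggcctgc
ATP5MC2 (complex V, NRF1, chr12:53676084-53676233, minus strand): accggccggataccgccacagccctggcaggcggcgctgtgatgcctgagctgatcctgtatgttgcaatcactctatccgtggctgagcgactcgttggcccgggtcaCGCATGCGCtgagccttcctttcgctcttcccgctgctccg

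Of the counts of the HGC-27 control, 0.723% fell on the members (95% exact binomial interval 0.719% to 0.727%, counting error only). Their share was 0.565% and 0.614% in the HGC-27 libraries labelled NINJ1, and in AGS 0.588% in the control and 0.587% and 0.584% in those labelled NINJ1. The HGC-27 control was thus the highest of the 6, while the 3 AGS libraries lay close together. The most abundant member per length was ATP5F1B, the catalytic beta subunit of the ATP synthase, with a mean of 349 FPKM over the 6 libraries. It made up 40.2% to 52.1% of the FPKM sum of complex V. The highest members of the other complexes were NDUFS5 (188 FPKM) in complex I, SDHB (45.4), the iron-sulfur subunit, in complex II, UQCRC1 (82.3), a core protein of complex III, and COX7C (75.5), a small subunit of complex IV. The lowest tested members were NDUFA7 (0.285 FPKM), SDHC (8.38), UQCRHL (0.543), COX6B2 (0.581) and ATP5ME (0.568).

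The median FPKM of all members of a complex was highest for complex II, at 33.5 in the HGC-27 control and 25 to 27.6 in the other libraries. In the other libraries than the HGC-27 control it was lowest for complex I, at 10.0 to 12. In that control complex IV was lowest (10.7), followed by V (11.8), I (12.1) and III (13.9). That order depends on the length used. The deposited values divide by the merged length of all annotated exons, which for COX4I1 is 5.49 times and for SDHA 3.51 times the principal transcript. Divided by the principal transcript of GENCODE 29, the medians were 52.2 to 101 for complex II, 32.7 to 48.3 for complex V, 23.2 to 29.9 for complex I, 15 to 34.5 for complex IV and 14.8 to 22.6 for complex III. This second length was chosen after seeing the data.

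**Figure D1:**
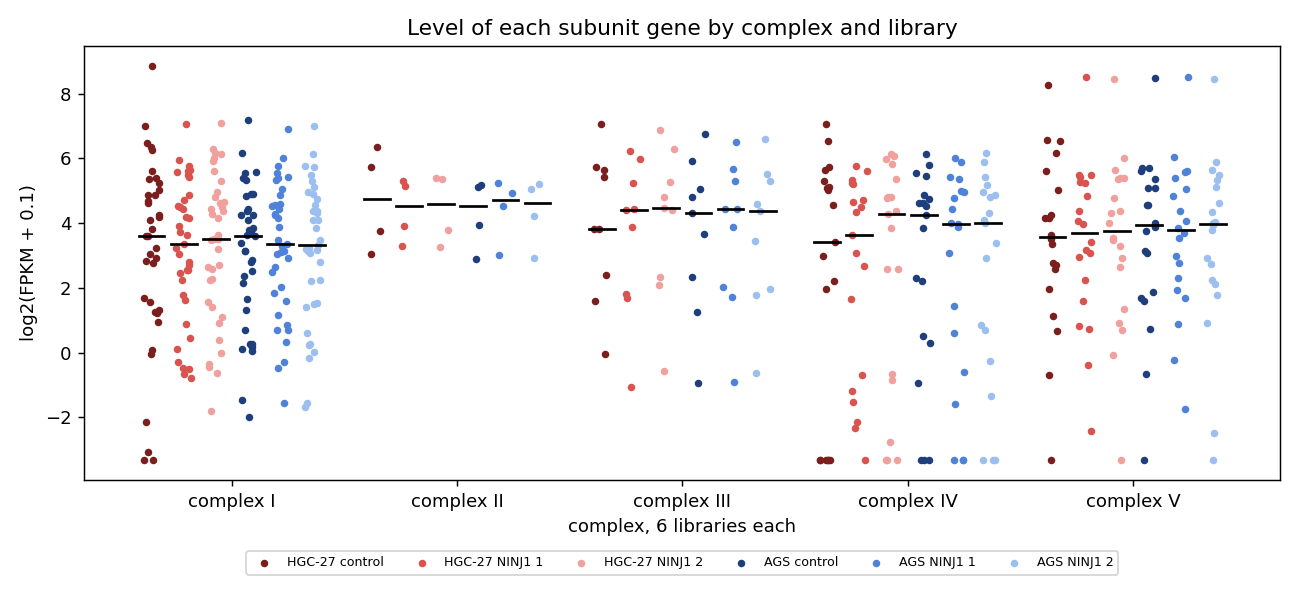
Level of all 89 members as log2(FPKM + 0.1), grouped by complex on the horizontal axis, with 1 column of points per library and a bar at the median. Points at the bottom are genes listed at 0; within a complex the members span several log2 units in every library, and ATP5F1B and NDUFS5 stand at the top of complexes V and I.

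Several subunits that every respiring cell needs had low values in all libraries. Of the 84 tested members, 23 had a mean FPKM under 5, and 18 of these share at least 10% of the 50-base words of their principal transcript with another annotated gene. Of the 61 members at or above 5 FPKM, 16 do. NDUFV2, a subunit of the NADH-oxidising module, shared 82% of its words, mostly with AP005263.1, and had a mean of 1.73 FPKM. NDUFA7 shared 76.8% and had 0.285, NDUFB8 shared 72.7% and had 0.792, and ATP5PO, the stalk subunit OSCP, shared 69.0% and had 3.83. The authors' counting could leave out or split reads of these genes, so their levels are uncertain. ATP5ME overlapped exons of MYL5 on the other strand over 61.6% of its length, and no strand setting was stated. Counting error is large where counts are this low: NDUFA7 had 0 to 11 counts per library and ATP5ME 1 to 12.

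Several tissue-restricted isoforms were near 0. COX8C, a testis form, had no count in any library. COX4I2 and COX6A2, lung and muscle forms of complex IV subunits, each had 1 count in 1 HGC-27 library labelled NINJ1 and 0 in the other 5. COX7A1, a muscle form, had 0 counts in the HGC-27 control and 3 to 7 in each of the others, and ATP5MGL, a retrocopy of ATP5MG, had 0 to 2. COX7A1 was at least 1.87-fold higher in the HGC-27 libraries labelled NINJ1, with 3 counts allowed in the control and no correction for GC content. Its GC content is 61.0%, and all tested genes from 55% GC on had a median log2 difference of 2.03 in HGC-27. These 5 isoforms were not tested. Their housekeeping counterparts COX4I1 (37.7 to 44.0 FPKM), COX6A1 (1.51 to 5.88), COX7A2 (24.5 to 50.1) and COX8A (4.56 to 24.7) were measured in every library. COX7B2, a paralog of COX7B, was at 4.53 to 8.44 FPKM against 19.8 to 34.5 for COX7B. COX6B2, the testis paralog of COX6B1, had 0 counts in the HGC-27 control and 27 to 60 in the other libraries.

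In AGS few members differed between the libraries labelled NINJ1 and the control. NDUFC2 and NDUFAB1, both of complex I, were higher, and COX6A1, COX8A, ATP5IF1, NDUFB1 and ATP5F1E were lower. These 2 higher members of 84 tested stand beside 5.73% of 17617 genes called higher in the same comparison, and the 5 lower ones beside 9.3% called lower. The members' median difference was 0.00 on the log2 scale, and that of all tested genes was also 0.00. By complex the medians were 0.15 for complex I, 0.04 for II, -0.04 for III, -0.09 for IV and -0.06 for V. No member of complexes II and III passed the edgeR threshold (adjusted p under 0.05), with 1 and 2 of them at an unadjusted p under 0.05, and DESeq2 called 1 member in all, ATP5IF1.

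NDUFC2, an accessory membrane-arm subunit, was at 1.11 FPKM in the control of AGS and at 2.15 and 2.58 in the libraries labelled NINJ1, a log2 difference of 1.04 ± 0.33 (SE; edgeR adjusted p = 0.0313). NDUFAB1, the mitochondrial acyl carrier protein, was at 28.4 in the control and 41.7 and 39.6 in the other libraries (log2 0.47 ± 0.15, edgeR adjusted p = 0.0325). In both genes the libraries labelled NINJ1 lay above the control without overlap. ATP5IF1, the inhibitor of ATP hydrolysis by complex V, was at 23.4 in the control and 13.0 and 15.4 in the others (log2 -0.77 ± 0.17, edgeR adjusted p = 0.00134). COX8A, a small membrane subunit of complex IV, was at 24.7 in the control and 15.5 and 10.3 (log2 -1.0 ± 0.32, edgeR adjusted p = 0.0282), and 34.5% of its exon length overlaps AP000721.1. Both lay below the control, and the 2 values of COX8A were farther apart. COX6A1 was at 4.85 in the control and 2.59 and 1.51 in the others (log2 -1.30 ± 0.36, edgeR adjusted p = 0.0127). It shares 44.0% of its 50-base words with other genes, chiefly the copy COX6A1P2. NDUFB1, a small membrane-arm subunit, fell from 12.2 to 7.53 and 9.02 (log2 -0.61). ATP5F1E, the epsilon subunit of complex V, fell from 23.6 to 16.8 and 20.3 (log2 -0.40). DESeq2 called neither of these, nor NDUFC2, NDUFAB1, COX6A1 or COX8A. The remaining 77 tested members did not pass.

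The AGS count rests on which libraries set the spread. It was 1 without AGS NINJ1 replicate 2, 3 without AGS NINJ1 replicate 1, and 24 (8 higher, 16 lower) without either HGC-27 library labelled NINJ1 or with the AGS libraries alone. The shares of all tested genes called in these fits are not given here, so the counts cannot be read as particular to the members. After GC correction 2 members were higher and 7 lower, beside 8.2% and 10.3% of all tested genes. COX8A was then not called (log2 -0.84, edgeR adjusted p = 0.0582). limma on log2(FPKM + 1) called 1 member, a higher one.

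In HGC-27 most members differed from the control, and mostly downward. Of 84 tested members, 46 (54.8%) were lower in the libraries labelled NINJ1 beside 29.1% of all tested genes, and 20 (23.8%) were higher beside 34.0% of all tested genes. The members' median difference was -0.63 on the log2 scale against 0.12 for all tested genes. All 5 complexes had a negative median. The members that fell include the abundant subunits NDUFS5, COX7C and ATP5PB, and those that rose are mostly genes of high GC content.

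The counts in complex I were 10 higher and 20 lower of 37 (median -0.61), and in complex II 0 and 2 of 4 (median -0.58). In complex III they were 1 and 4 of 9 (median -0.75), in complex IV 5 and 9 of 15 (median -0.77) and in complex V 4 and 11 of 19 (median -0.59). Members at 0 in the control have fitted values that are no bound. Placing them at their bound left the medians at -0.63 over all members and -0.77 in complex IV. These bounds are positive like the fitted values, so this step could not move a negative median. Counting NDUFA4 and NDUFA4L2 with complex I left the medians of complexes I and IV at -0.61 and -0.77. Without TMM scaling, in limma on log2(FPKM + 1), the median was -0.24 for the members and 0.32 for all genes tested there.

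GC content moved with these differences. In the 31 tested members below 45% GC, 0 rose and 25 fell, with a median of -0.93, and in the 23 between 45% and 50% GC, 2 rose and 16 fell (median -0.80). In the 11 between 50% and 55%, 1 rose and 4 fell (median -0.57), and in the 19 from 55% on, 17 rose and 1 fell (median 1.30). The medians of all tested genes in the same 4 classes were -0.66, -0.15, 0.56 and 2.03, each above that of the members. In AGS the members' medians in these classes were 0.03, 0.06, 0.03 and -0.13. After a correction for GC content in each library, 44 members were lower and 9 higher in HGC-27, beside 25.3% and 23.7% of all tested genes, and the members' median was -0.51 against 0.02.

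**Figure D2:**
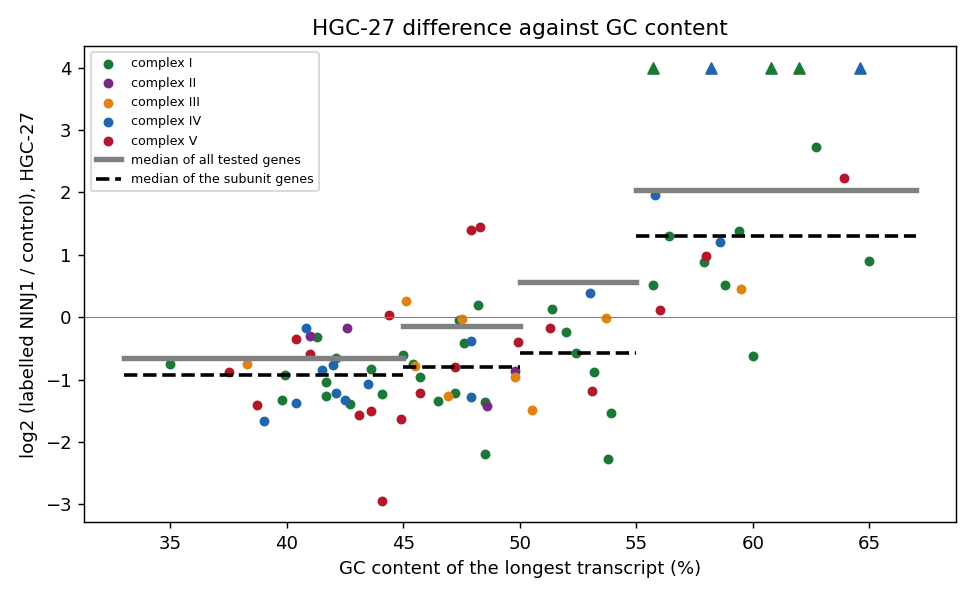
Log2 difference of the 84 tested members in HGC-27 (libraries labelled NINJ1 over control, vertical axis) against GC content of the longest transcript in percent, coloured by complex. Triangles mark 5 members with a fitted value above 4. Grey bars (all tested genes) and dashed bars (members) are medians in 4 classes of GC content, and the dashed bar lies below the grey one in each class.

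The correction changed which members were called. Of the 46 lower members, 34 were lower after correction and 12 were not called. Of the 20 higher members, 5 were higher after correction, 10 were not called and 5 were lower. Those 5 were NDUFB7 (0.91 before, -1.72 after), NDUFB10 (0.52 and -1.02), NDUFS8 (0.89 and -0.53), NDUFS3 (0.51 and -0.50) and UQCRC1 (0.45 and -1.24), all on the log2 scale. The 34 that were lower both ways comprise 13 members of complex I, 2 of complex II, 3 of complex III, 7 of complex IV and 9 of complex V. The 5 that were higher both ways are ATP5MC1, ATP5MC2, COX6B1, COX6B2 and NDUFS7. With the correction, 20 members of complex I were lower and 1 higher, and the medians were -0.50 for complex I, -0.33 for II, -0.79 for III, -0.27 for IV and -0.57 for V.

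**Figure D3:**
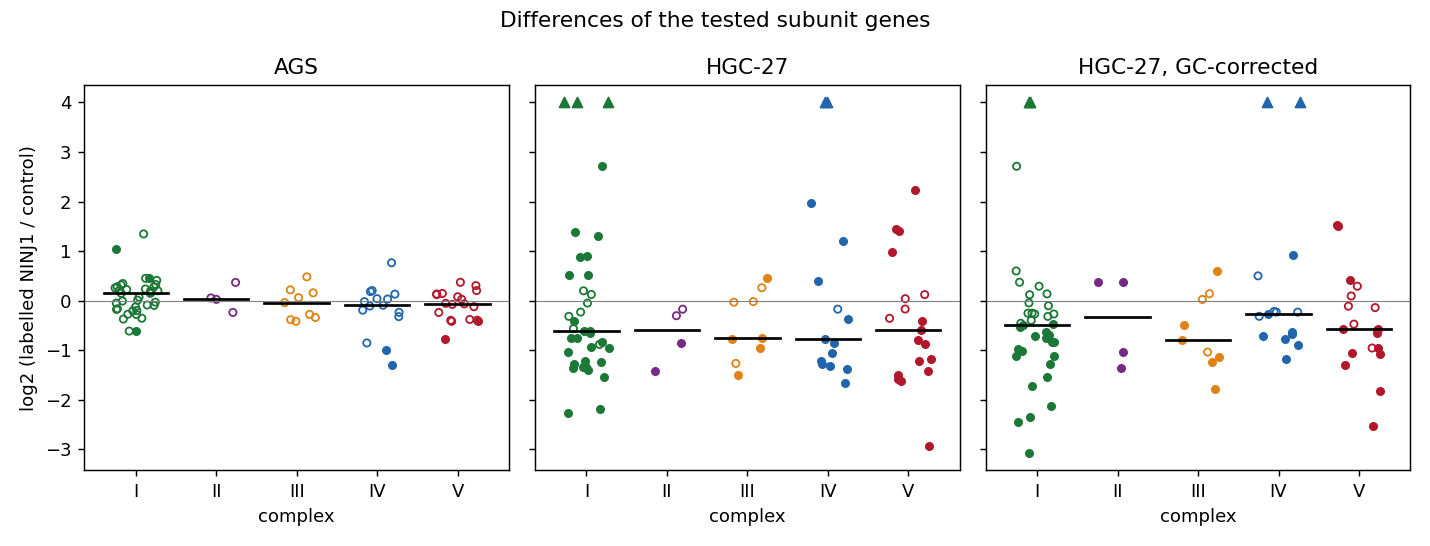
Log2 difference between libraries labelled NINJ1 and control for each of the 84 tested members, by complex, in AGS, in HGC-27 and in HGC-27 after GC correction. Filled circles passed the edgeR threshold, open circles did not, and bars are medians. Triangles stand for fitted values above 4, whether or not they passed. After GC correction NDUFA7 and NDUFA4L2 are drawn as triangles but did not pass. Medians lie between -0.09 and 0.15 in AGS and below 0 in every complex in HGC-27, before and after correction.

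Among complex I subunits that fell, NDUFS5, an accessory subunit on the intermembrane-space side (chr1:39026318-39034636, GRCh38), was at 466 FPKM in the HGC-27 control. It was at 133 and 136 in the libraries labelled NINJ1, and at 145, 121 and 127 in the 3 AGS libraries. The control alone was high, 4.56-fold above the HGC-27 libraries labelled NINJ1 (log2 -2.19 ± 0.13, edgeR adjusted p = 4.67e-16, GC-corrected -2.12). NDUFS6, a zinc-binding subunit needed late in assembly, was at 127 in the control, 54.1 and 60.5 in the libraries labelled NINJ1 and 42.4 to 54.5 in AGS (log2 -1.54 ± 0.13, edgeR adjusted p = 6.46e-12, GC-corrected -2.35). Here too 1 library lay far above the other 5. NDUFA1, an X-linked subunit of the membrane arm, was at 76.3 in the control and at 10.1 and 31.4 in the libraries labelled NINJ1, which differed 3.14-fold between themselves, against 8.59 to 10.4 in AGS. Its difference was -2.27 ± 0.27 on the log2 scale (edgeR adjusted p = 8.09e-09, GC-corrected -3.07). NDUFA1 overlaps RNF113A on the other strand over 44.5% of its exon length, and its reads cannot be assigned without a strand setting.

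The core subunits of complex I that bind FMN, iron-sulfur clusters and ubiquinone were a mixed group. NDUFS1 (log2 -0.65) and NDUFS4, an accessory subunit beside it (-1.40), fell, NDUFV2 stood at -0.32 without passing, and NDUFS3, NDUFS8 and NDUFV1 (1.39) rose. After GC correction NDUFS1 (-0.10) and NDUFV1 (-0.27) were not called, whereas NDUFS3 and NDUFS8 were lower. NDUFS7, which holds an iron-sulfur cluster next to ubiquinone, had 0 counts in the HGC-27 control and 52 and 62 in the libraries labelled NINJ1. With 3 counts allowed in the control it was at least 17.8-fold higher. It overlaps AC005329.1 on the other strand over 49.1% of its exon length. NDUFA13 had 1 count in the control and 60 over the pair labelled NINJ1, a ratio of 28.1 (95% exact interval 4.85 to 1130, counting error only), and NDUFA7 with 0 against 11 and 4 counts was at least 2.35-fold higher. Neither passed after GC correction.

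Complex II is the smallest complex, and its members did not move alike in HGC-27. SDHB was at 82.4 FPKM in the control, 39.1 and 41.5 in the libraries labelled NINJ1 and 34.7 to 38.1 in AGS. The control was high and the other 5 libraries lay close together (log2 -1.43 ± 0.13, edgeR adjusted p = 8.67e-12, GC-corrected -1.36). SDHA, the flavoprotein that oxidises succinate, was at 53.6 in the control and 35.1 and 42.4 in the others (log2 -0.86 ± 0.13, edgeR adjusted p = 6.01e-07). Its sequence shares 22.3% of 50-base words with other genes. The membrane anchors SDHC (8.23 against 9.75 and 9.49 FPKM) and SDHD (13.4 against 15 and 13.6) had log2 differences of -0.17 and -0.30 that did not pass, and 0.39 and 0.38 after GC correction, which did. The direction of both anchors thus depends on the correction.

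In complex III, UQCRQ, a small subunit near ubiquinone, was at 52.6 FPKM in the HGC-27 control and 21.2 and 27.9 in the libraries labelled NINJ1 (log2 -1.49 ± 0.16, edgeR adjusted p = 4.87e-10, GC-corrected -1.78). In AGS it was at 27.8 in the control and 21.6 and 23.9 in the others. The core protein UQCRC2 (log2 -0.78) and the hinge protein UQCRH (-0.96) fell as well, UQCRH from 133 to 62.9 and 117 FPKM. UQCRH shares 29.4% of its words with its retrocopy UQCRHL, which was at 0.883 against 0.380 and 0.579 FPKM. UQCRFS1, the Rieske iron-sulfur protein, stood at 0.26 and did not pass, and was higher (0.59) after GC correction.

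In complex IV, COX7C was at 134 FPKM in the HGC-27 control, 54.5 and 56.9 in the libraries labelled NINJ1 and 64.6 to 72.0 in AGS (log2 -1.67 ± 0.13, edgeR adjusted p = 2.29e-13, GC-corrected -0.90). COX5A, a matrix-side subunit, was at 92.7 against 37.3 and 62.6 (log2 -1.29 ± 0.17, edgeR adjusted p = 7.3e-08). For both genes the control was the highest library of the 6. NDUFA4 fell from 52.8 FPKM to 25.9 and 27.8 (log2 -1.37), COX7A2 from 50.1 to 25.1 and 27.5 (-1.32), and COX7A2L, known for its part in supercomplexes, from 32.7 to 20.4 and 20.8 (-1.06). COX7B (34.5 against 22.4 and 28.2 FPKM, log2 -0.84), COX7B2 (7.91 against 6.33 and 5.85, -0.77) and COX6C (-1.22) fell, and so did COX4I1 (-0.38). After GC correction COX7B (-0.22) and COX7B2 (-0.23) were not called, whereas COX6C (-0.67) and COX4I1 (-0.27) were still lower. COX6B1, on the intermembrane-space side, went the other way, from 10.7 in the control to 39.8 and 69.9 (log2 1.96 ± 0.24, edgeR adjusted p = 9.32e-09, GC-corrected 0.93). Its testis paralog COX6B2 had 0 counts in the control against 29 and 31, at least 9.35-fold higher. NDUFA4L2, a hypoxia-induced paralog of NDUFA4, had 0 counts in the control and 10 and 2 in the libraries labelled NINJ1, at least 1.89-fold higher, and was not called after GC correction or with DESeq2.

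In complex V all 4 subunits of the peripheral stalk fell in HGC-27. ATP5PO (chr21:33903453-33915980, GRCh38) was at 10.1 FPKM in the control and 1.68 and 1.79 in the libraries labelled NINJ1, against 2.94, 3.11 and 3.34 in AGS. It was 7.67-fold lower (log2 -2.94 ± 0.20, edgeR adjusted p = 3.21e-14, GC-corrected -2.52), the control being the only high library. The other stalk subunits ATP5PB (95.2 against 42.6 and 41.6 FPKM, log2 -1.57), ATP5PD (17.8 against 7.59 and 7.57, -1.63) and ATP5PF (-1.18) fell too, and all 4 were lower after GC correction. Of the catalytic head, the alpha subunit ATP5F1A (-1.21) and the gamma subunit ATP5F1C (-1.50) fell, and the beta subunit ATP5F1B stood at -0.17 without passing (308 against 366 and 354 FPKM). The delta subunit ATP5F1D rose from 6.46 to 38.3 and 41.9 FPKM (log2 2.24) but stood at -0.11 after GC correction, and was at 51.6, 41.8 and 40.5 in AGS. After GC correction ATP5F1B was lower (-0.57). The sum of FPKM over complex V was 0.920 and 0.953 times that of the control, against 0.585 and 0.675 for complex I. Without NDUFS5 the sum of complex I went from 831 in the control to 625 and 740, and without ATP5F1B that of complex V from 457 to 337 and 374.

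The c-ring of complex V is built from 1 mature protein encoded by 3 genes, ATP5MC1, ATP5MC2 and ATP5MC3, and these genes parted in HGC-27. ATP5MC1 (chr17:48892765-48895871) was at 5.95 FPKM in the control and 20.6 and 20.8 in the libraries labelled NINJ1, against 16.1, 20.8 and 16.1 in AGS. It was low in the control alone (log2 1.40 ± 0.18, edgeR adjusted p = 2.85e-08, GC-corrected 1.51). ATP5MC2 (chr12:53632726-53677408) was at 12.2 in the control and 38.1 and 49.4 in the others, against 33.6, 28.7 and 24.4 in AGS (log2 1.44 ± 0.16, edgeR adjusted p = 1.16e-09, GC-corrected 1.53). ATP5MC3 (chr2:175176258-175184607) was at 11.4 in the control and 8.85 and 11.1 in the others, against 8.73, 7.85 and 7.52 in AGS. It differed by -0.59 ± 0.15 (edgeR adjusted p = 0.000763), and by 0.10 after GC correction, when it was not called. The GC content of the 3 genes is 47.9%, 48.3% and 41.0%, and ATP5MC1 and ATP5MC2 were the 2 members called higher among the 23 between 45% and 50% GC.

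**Figure D4:**
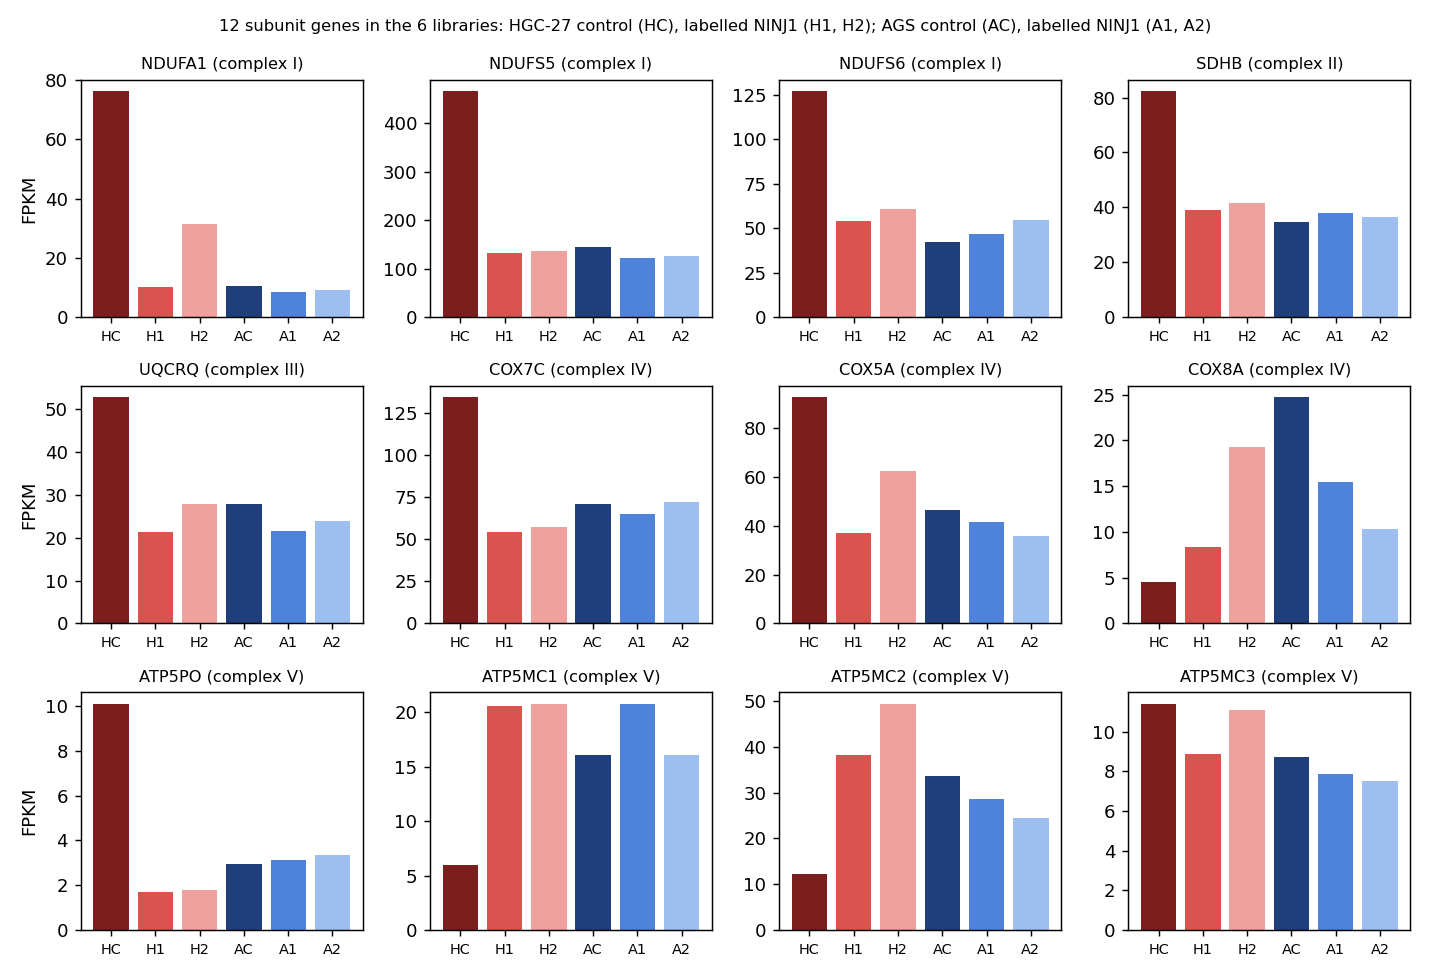
FPKM (vertical axis, from 0, each panel with its own scale) of 12 members in the 6 libraries, 1 bar per library without an error bar. The HGC-27 control is the highest library for NDUFA1, NDUFS5, NDUFS6, SDHB, UQCRQ, COX7C, COX5A, ATP5PO and ATP5MC3 and the lowest for COX8A, ATP5MC1 and ATP5MC2.

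The HGC-27 comparison rests on 1 control library, whose position can be given against all others. On TMM-scaled counts it was the highest of the 6 libraries for 51 of the 84 tested members (60.7%), beside 32.7% of all tested genes, and the lowest for 20 members (23.8%), beside 41.3%. Both HGC-27 libraries labelled NINJ1 lay below their control for 54 members (64.3%, beside 42.9% of all tested genes) and both above it for 22 (26.2%, beside 47.9%). In AGS both lay below for 36 (42.9%, beside 41.5%) and both above for 34 (40.5%, beside 41.3%), which is near the share of all genes. The cause of this library's position was not tested. With the lines of the replicate 2 libraries as titled, 14 members were lower and 4 higher in HGC-27 and 0 were called in AGS.

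Replicates labelled NINJ1 were close for most members. Between the HGC-27 pair 65 of 84 members differed by less than 0.5 on the log2 scale and 5 by more than 2-fold, with a median of 0.14 toward replicate 2. These 5 were NDUFA1 (1.65), COX8A (1.23) and NDUFV2 (1.03), higher in replicate 2, and NDUFA7 (-1.50) and NDUFA4L2 (-2.36), lower in it. The AGS pair had 79 members within 0.5 and 2 beyond 2-fold, NDUFA7 (-1.51) and ATP5ME (-3.22), with a median of 0.01. NDUFA7, ATP5ME and NDUFA4L2 had few counts. Complex III had the largest median shift of any complex between the HGC-27 replicates (0.41), against 0.04 to 0.14 in the others.

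The difference between libraries labelled NINJ1 and control was unlike in the 2 lines for 55 members (65.5%), beside 54.2% of all tested genes. This contrast contains the single HGC-27 control, and NINJ1 itself was lower in the AGS libraries labelled NINJ1. It is therefore no measure of a response to NINJ1. As the difference of the 2 log2 changes (AGS minus HGC-27), 39 members were positive beside 23.9% of all tested genes, and 16 were negative beside 30.2%. The median was 0.50 for the members and -0.15 for all tested genes. After GC correction the split was 40 positive and 9 negative, beside 17.7% and 17.2%, with a median of 0.60 against -0.04. ATP5PO (3.02 ± 0.31), NDUFA1 (1.99 ± 0.46), NDUFS5 (1.91 ± 0.19), NDUFC2 (1.80 ± 0.44) and ATP5PB (1.78 ± 0.18) had the largest positive differences, all with an edgeR adjusted p of 0.000863 or lower. The NDUFA1 difference was not called by DESeq2 (2.04 ± 1.33, adjusted p = 0.217) or by limma on log2 FPKM (adjusted p = 0.0937 with a pseudocount of 1 and 0.107 with 0.1). It was 3.06 without HGC-27 NINJ1 replicate 2. NDUFS7 (-8.94), COX6B2 (-8.67), NDUFA4L2 (-5.34) and NDUFA13 (-4.39) had fitted values that rest on 0 or 1 count in the HGC-27 control and are no measure of size. ATP5F1D had -2.62 ± 0.21 (edgeR adjusted p = 2.5e-12) and 0.00 after GC correction. ATP5MC2 (-1.84) and ATP5MC1 (-1.26) differed between the lines too, with -1.96 and -1.39 after correction. By complex the called members were 17 positive and 8 negative in complex I, 3 and 0 in II, 2 and 1 in III, 8 and 4 in IV and 9 and 3 in V.

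The libraries labelled NINJ1 of the 2 lines were also compared directly, without either control. Members were as often higher in AGS as in HGC-27: 18 higher beside 20.2% of all tested genes and 18 lower beside 20.0%, with a median of -0.02. limma on log2(FPKM + 1) called 16 higher and 8 lower. By complex, 7 were higher and 8 lower in I, 1 and 2 in II, 1 and 2 in III, 3 and 4 in IV and 6 and 2 in V. The count was 16 without AGS NINJ1 replicate 2 and 20 without AGS NINJ1 replicate 1.

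NDUFA4L2 differed most, at 1.41 and 1.72 FPKM in AGS against 0.246 and 0.0474 in HGC-27, with 1.33 in the AGS control (log2 3.40 ± 0.49, edgeR adjusted p = 8.55e-07). All AGS libraries lay above all HGC-27 libraries. NDUFA10, a nucleoside-kinase-like accessory subunit, was at 6.19 and 6.88 in AGS against 3.32 and 2.84 in HGC-27 (log2 1.08 ± 0.13, edgeR adjusted p = 4.07e-08). Its controls lay the same way, at 5.02 in AGS and 2.42 in HGC-27. ATP5PO (0.89), NDUFA9 (1.17 and 1.11 against 0.718 and 0.691 FPKM, log2 0.69) and NDUFB5 (10.1 and 10.0 against 6.43 and 6.11, log2 0.68) followed. Lower in AGS were NDUFA3, at 3.46 and 2.74 against 5.44 and 9.10 FPKM (log2 -1.24 ± 0.22, edgeR adjusted p = 1.86e-05), NDUFA1 (-1.23), COX6A1 (-1.14), NDUFS7 (-1.09) and UQCRH (-0.91). For UQCRH, the HGC-27 replicates stood at 62.9 and 117 against 50.7 and 45.8 in AGS. DESeq2 did not call NDUFA1, COX6A1, NDUFS7, UQCRH or NDUFA9 in this comparison. Of these values, 4 moved by over 1.5 times without HGC-27 NINJ1 replicate 2. NDUFA1 then stood at -0.17 (edgeR adjusted p = 0.566) and COX6A1 at -0.59 (edgeR adjusted p = 0.185), neither called. NDUFA3 stood at -0.81 and UQCRH at -0.38 without it, both still called. COX6A1 also missed the threshold without AGS NINJ1 replicate 2 (edgeR adjusted p = 0.072). NDUFS7 missed it without AGS replicate 1, AGS replicate 2 or HGC-27 replicate 2 labelled NINJ1 (edgeR adjusted p from 0.0778 to 0.0923), and NDUFA9 without AGS NINJ1 replicate 1 (edgeR adjusted p = 0.051).

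Other genes of the pathway were read in the same fit. The 13 subunits encoded by mitochondrial DNA took 6.50% of counts in the HGC-27 control, 3.75% and 3.39% in the HGC-27 libraries labelled NINJ1, and in AGS 5% in the control and 3.19% and 2.78% in those labelled NINJ1. In AGS 12 of them fell (92.3%, beside 9.3% of all tested genes) and 0 rose (median -0.74), while the nuclear members stood at 0.00. In HGC-27 5 fell (38.5%) and 4 rose (30.8%), beside 29.1% and 34.0% of all tested genes. After GC correction 5 fell (38.5%) and 8 rose (61.5%) there, beside 25.3% and 23.7%. MT-CO1, the catalytic subunit of complex IV, was at 23900.0 FPKM in the HGC-27 control against 6910.0 and 5910.0 (log2 -2.295). MT-ND6 went the other way in HGC-27 (log2 1.187, GC-corrected 1.738). Of 50 tested assembly factors, 6 rose and 0 fell in AGS, among them NDUFAF4 (0.84) for complex I and COX19 (0.88) for complex IV, and 16 rose and 16 fell in HGC-27 (median -0.04). The 6 that rose in AGS are 12% of the list, beside 5.73% of all tested genes called higher and 9.3% called lower. The 16 in each direction in HGC-27 are 32.0% each, near the 34.0% and 29.1% of all tested genes. Of 78 mitochondrial ribosomal protein genes, 6 rose and 0 fell in AGS and 27 rose and 35 fell in HGC-27 (median -0.23), or 13 and 29 after GC correction. Of the ribosomal list 7.69% rose in AGS and 34.6% in HGC-27, near the shares of all genes. Its lower share in HGC-27 was 44.9%, and 37.2% after GC correction, where 25.3% of all tested genes were called lower and 23.7% higher.

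Of 17 regulators of respiratory chain transcription, 3 rose (17.6%) and 1 fell (5.88%) in AGS, beside 5.73% and 9.3% of all tested genes. In HGC-27 4 rose (23.5%) and 6 fell (35.3%), beside 34.0% and 29.1%. The balance turned after GC correction, to 6 higher and 4 lower, and the median went from -0.22 to 0.19. The one that fell in AGS was PPARGC1A, the coactivator PGC-1alpha, at 3.21 FPKM in the control and 2.09 and 1.82 in the others (log2 -0.77, edgeR adjusted p = 0.000925). It fell in HGC-27 as well, from 8.67 to 3.87 and 3.70 (log2 -1.59, edgeR adjusted p = 2.04e-11, GC-corrected -0.95), without overlap in either line. Other regulators went the opposite way, and the next pair was named after the values were seen. PPARGC1B, the related coactivator PGC-1beta, was at 2.07 FPKM in the control of AGS against 3.22 and 3.00 under the NINJ1 label (log2 0.53, edgeR adjusted p = 0.0375). In HGC-27 it was at 0.653 in the control and 1.87 and 1.96 (log2 1.16, edgeR adjusted p = 4.88e-06, GC-corrected 0.87). ESRRA, the nuclear receptor ERR-alpha with which these coactivators work, was at 0.381 FPKM in the HGC-27 control and at 21.4 and 24.4 in the libraries labelled NINJ1 (log2 5.51, edgeR adjusted p = 5.62e-18, GC-corrected 3.32). In AGS ESRRA was at 23.6 to 27.2 in all 3 libraries, so the HGC-27 control alone was low. NRF1, whose motif is marked above, stood at 0.49 in AGS and 0.10 in HGC-27 and passed in neither. YY1 was lower in HGC-27 (log2 -0.68, edgeR adjusted p = 1.24e-05, GC-corrected -0.59) and did not pass in AGS (-0.275). Of the GABP genes, GABPA was lower in HGC-27 (-0.76, edgeR adjusted p = 0.000119), but stood at -0.05 after GC correction and was not called. GABPB1 was higher in AGS (0.66, edgeR adjusted p = 0.00394). In HGC-27 it passed only after GC correction (0.19 before and 0.96 after). Of 22 genes of mitochondrial quantity, import and carriers, 5 rose (22.7%) and 0 fell in AGS, beside 5.73% and 9.3% of all tested genes. In HGC-27 7 of them rose (31.8%) and 13 fell (59.1%), beside 34.0% and 29.1%. After GC correction 1 rose (4.55%) and 13 fell (59.1%) there, beside 23.7% and 25.3%. SLC25A5, an ATP/ADP carrier, was at 481 FPKM in the HGC-27 control against 203 and 207 in the libraries labelled NINJ1 (log2 -1.63) and 197 to 222 in AGS, so the control alone was high.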

How the data were processed

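Polyadenylated RNA of 6 libraries (HGC-27 and AGS, 1 control and 2 labelled NINJ1 each) was made into libraries with a NEBNext Ultra kit, per the labels' protocols. The submitters' processing notes name HISAT2, HTSeq 0.13.5 and GRCh38. The version of HISAT2, the annotation release and the strand setting are not given in the sources used here. The deposited values are a raw count and an FPKM per gene, per the file headers. The authors' FPKM was found to equal the count over 1 fixed length per gene and the library's total count, and that length equals the merged exon length in GENCODE release 29 for 88 of 88 members with a count.

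Counts were tested with edgeR 4.0.16 (R 4.3.3): filterByExpr with a minimum count of 10 (17617 genes), TMM scaling, 1 mean per line and treatment, two-sided quasi-likelihood tests, and Benjamini-Hochberg adjustment over all tested genes at 0.05. The method was also run on simulated counts, in which the controls varied like the other libraries and no GC shift was built in. That run therefore cannot judge a comparison with the departing HGC-27 control. Lines follow the file names. GC correction subtracts, per library, the median deviation in 40 bins of GC content. Alternatives were DESeq2 1.42.0 or its size factors, tests without the filter or on genes with mean FPKM from 5 up, limma 3.58.1 on log2(FPKM + 1) or log2(FPKM + 0.1) for genes with at least 1 FPKM in 2 libraries, GC and length correction, lines as titled, each library left out, single-line fits and a replicate block. A count of 0 allows up to 3 counts, which sets lower bounds of fold on TMM-scaled counts, without GC correction. Members named are, per comparison, up to 5 called in each direction with the largest difference, the highest and lowest of each complex, SDHA to SDHD and paralog sets. Other named members were chosen after their values were seen. Members and lists were chosen with earlier results of these data known. The values of 1 member are not reported here.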

Additional observations from a re-analysis of the deposited data

Results flagged for a closer look

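The change between libraries labelled NINJ1 and control differed between AGS and HGC-27 for 55 of 84 tested members (edgeR quasi-likelihood test of the difference, adjusted p under 0.05 over all tested genes). That is 65.5% of the members, beside 54.2% of all 17617 tested genes called in the same comparison. As AGS minus HGC-27 on the log2 scale, the largest positive differences were 3.02 for ATP5PO, 1.99 for NDUFA1, 1.91 for NDUFS5, 1.80 for NDUFC2 and 1.78 for ATP5PB. The largest negative ones were -8.94 for NDUFS7, -8.67 for COX6B2, -5.34 for NDUFA4L2, -4.39 for NDUFA13 and -2.62 for ATP5F1D. NDUFS7, COX6B2 and NDUFA4L2 had 0 counts and NDUFA13 had 1 count in the HGC-27 control, so these 4 fitted values are no measure of size. All of these differences contain the single HGC-27 control, and NINJ1 itself was lower in the AGS libraries labelled NINJ1.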

How the results depend on the processing

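The 66 members called in HGC-27 became 18 with lines as titled and ranged from 64 to 67 when a library was left out. With lines as titled, 0 members were called in AGS, between the lines and for the difference, where the main counts were 7, 36 and 55. The shares of all tested genes called in these alternatives are not given here. In AGS the count was 1 with DESeq2, log2(FPKM + 1) and log2(FPKM + 0.1), 24 with the AGS libraries alone, and 1 to 24 when a library was left out. Between the lines it was 21 with DESeq2, 23 with log2(FPKM + 0.1), and 16 to 43 when a library was left out. For the difference it ranged from 52 to 62.

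The median in AGS, 0.00, was -0.0126 with DESeq2, -0.0129 with its size factors, -0.11 at a mean FPKM of at least 5, 0.0591 and 0.0615 with pseudocounts of 1 and 0.1, -0.0156 with GC and -0.0197 with GC and length correction, 0.0794 with lines as titled, 0.0121 with AGS alone, and -0.0139 to 0.0154 when a library was left out. In HGC-27, -0.63 became -0.74 at a mean FPKM of at least 5, -0.24 and -0.34 with these pseudocounts, -0.51 with GC correction, and -0.77 to -0.55 when a library was left out. For the difference, 0.50 became 0.62 at a mean FPKM of at least 5, 0.28 and 0.30 with the pseudocounts, 0.65 with GC and length correction, 0.69 with lines as titled, and 0.46 to 0.67 when a library was left out. The causes were not tested.

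With lines as titled, the log2 difference between the lines changed sign for NDUFA4L2 (-0.45), NDUFA10 (-0.18), ATP5PO (-0.041), NDUFB5 (-0.025), NDUFA3 (0.62), NDUFA1 (1.05), COX6A1 (0.89), NDUFS7 (0.14) and UQCRH (0.63). ATP5F1D changed sign to 0.15 for the difference with GC and length correction. In 100 further cases, each a named member under 1 alternative, the call was lost without a change of sign.

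Same-numbered libraries labelled NINJ1 did not deviate together (correlation 0.00841). Whether they were prepared in pairs is not given in the labels, and this correlation cannot decide it. In the 4 libraries labelled NINJ1, 35 members were called between the lines without and 36 with a replicate block. Each control is a single library, so none could be left out of its own comparison. Leaving out members with at least 40% of 50-base words shared with another gene, a limit chosen after seeing the data, left 6, 59, 32 and 51 called.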
